A study of Mus musculus with 2 samples.

Results

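The cytoplasmic ribosomal protein genes encode the protein part of the ribosome that translates messenger RNA outside the mitochondria. Members were chosen by symbol alone: Rpl or Rps followed by a digit, plus Rplp0, Rplp1, Rplp2 and Rpsa, without symbols that mark pseudogenes and without the Rps6k kinase genes. There were 86 members among 15169 measured genes, 52 with Rpl symbols (large subunit) and 34 with Rps symbols (small subunit). They comprised 77 genes of the usual ribosome, 6 paralogs (Rpl22l1, Rps27l, Rpl36al, Rpl39l, Rpl3l and Rpl7l1) and 3 further symbols (Rpl6l, Rps27rt and Rps19bp1). The last of these encodes a partner of the Rps19 protein and no ribosomal protein. Another 12 pseudogene symbols and 9 Rps6k symbols were left out. Single-cell RNA sequencing compared the kidney of a normal control mouse with a kidney after unilateral ischaemia-reperfusion injury (IRI), an interruption and return of its blood supply, with contralateral nephrectomy. Both groups were wild-type C57BL/6 mice, 9 weeks old, with 1 library each. The labels give neither the time after injury nor a nephrectomy for the control, and the effect of ischaemia cannot be told apart from that of nephrectomy.

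Ribosomal proteins assemble with ribosomal RNA in the nucleolus into a small subunit, which reads the message, and a large subunit, which joins amino acids. Their messenger RNAs are among the most abundant of a cell and begin with a run of pyrimidines, the terminal oligopyrimidine (TOP) tract, through which mTOR signalling sets how strongly they are translated. Kidney tubule epithelium is rich in mitochondria and spends much of its energy on transport, and lymphocytes are small cells with a large share of ribosomal protein transcripts.

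Pyrimidine runs can be looked for in the genome around the annotated starts, although such a search does not place them at the first base of the message. RefSeq promoters were matched for 65 of 86 members, and the window from 20 bases before to 50 bases after the start was searched on the transcribed strand for a C followed by at least 5 bases that are C or T. Such a run was found in 54 of 65 members (83.1%), against 44.8% of all 27025 promoters, and its median length was 10 bases against 7. On the other strand of the same window the run was found in 27.7% of members and 48.6% of all promoters. The letters CTTTC occurred in 47.7% of member windows and 8.86% of all windows, and on the other strand in 10.8% and 8.66%. A run was held by 6 of 9 promoters (66.7%) of other ribosome and TOP partner genes, with a median length of 9.5 bases. On their other strand 6 of 9 held a run too. CTTTC occurred in 33.3% of the 9 promoters, and in 0% on the other strand. Of the mitochondrial set, 50% of 68 promoters held a run, and 33.8% on the other strand. Of 29 promoters of ribosome biogenesis genes 20.7% held a run, and 37.9% on the other strand. For 23 promoters of translation initiation factors these shares were 39.1% and 52.2%. The windows below belong to members named in the results: Rpl15, Rpl39 and Rps9 had high IRI over control ratios in the proximal tubule, Rps25 a low one, Rplp2 is a stalk gene, and Rps27l and Rpl36al are paralogs shown with their partners Rps27 and Rpl36a. Capitals mark the longest run found by this search, and coordinates are those of GRCm38.p6. A run begins at a C and stops at the edges of the searched window, so pyrimidines next to it can be in lower case. The runs shown begin from 19 bases before (Rps25) to base 37 after (Rpl39) the listed start, so they need not be the TOP tract.
Rpl15, chr14:18270969-18270998, minus strand: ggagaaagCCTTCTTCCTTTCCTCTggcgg
Rpl39, chrX:37085173-37085202, minus strand: gttcttccggtcccggCCTTTCTCTTCTCC
Rps9, chr7:3704028-3704057, plus strand: cgccttgtCTCTCTTTgtctcgggcctgag
Rps25, chr9:44407687-44407716, plus strand: ccgggcttCCTTTTTTTCCgacatcttagc
Rplp2, chr7:141447639-141447668, plus strand: gtcagcgtCTTCCTTTCgccgccggacgcc
Rps27, chr3:90213629-90213658, minus strand: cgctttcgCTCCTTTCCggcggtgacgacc
Rps27l, chr9:66946066-66946095, plus strand: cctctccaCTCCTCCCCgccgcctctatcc
Rpl36a, chrX:134585673-134585702, plus strand: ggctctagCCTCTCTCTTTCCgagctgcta
Rpl36al, chr12:69184018-69184047, minus strand: tctgttcgtCCCTTTCCTgttcggcgcgtg
Genes with high and with low ratios both carried a run. The windows of Rps28, Rplp0 and Rps19bp1 held none, which says only that these letters were not found near the listed start.

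The tables held 6589 control and 5170 IRI cells in 18 cell types and 29 clusters of the deposited annotation, and 55 cell barcodes occurred in both libraries. Raw UMIs (counted molecules) ran from 271 to 24680 per cell, with medians of 2344 and 1888.5. The values analysed are depth-corrected counts per cell, whole numbers whose totals ran from 1468 to 3212 per cell. A value below is the mean per cell in 1 library, so it has no error between animals, and no test or p-value is given; cells of a library are not replicates. The log2 ratio is that of IRI over control after adding 0.05 to both means. A gene counts as measured in a type with at least 30 summed counts, and the comparison of libraries took the 13 types that had 20 or more cells in both. All 13 compared types held at least 80 measured members, and 80 members were measured in every one. Rpl39l was measured in none. The types come from clusters of the same cells, so differences between types are a description. The summed proximal tubule markers stood at 19.9, 37.8 and 71.9 in control PT-S1, PT-S2 and PT-S3, and at 16.3, 16.9 and 38.5 in IRI. The markers went against the name tDL: the 4 thin limb markers summed to 0.578 in control and 0.382 in IRI, while proximal tubule markers summed to 73.6 and 13.3. A marker sum can rest largely on 1 abundant gene, as given for Resid. Mac below.

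B Cell, T Cell and Ccr2+ Mac held the most ribosomal protein transcripts of the 13 compared types, Resid. Mac came next, and the tubule, stromal and vascular types held fewer. The 86 members together averaged 774 depth-corrected counts per B Cell in control and 829.8 in IRI, which was 37.9% and 39.4% of all counts of those cells. T Cell averaged 750.2 and 873, or 32.7% and 37.1% of all counts. In Ccr2+ Mac the sum was 756 and 619, and in Resid. Mac 442 and 514. Then came tDL (271 and 411), Myofibroblast (287 and 382), PT-S1 (341 and 311), Vasculature (303 and 337) and PT-S2 (310.3 and 316), whose ranges over the 2 libraries overlapped from each to the next. TAL stood at 269.6 and 274. PT-S3 (195 and 261), CD-IC (222 and 223) and DCT/CNT (220.0 and 223) closed the order and were not separate. Neighbours whose 2 libraries did not overlap were B Cell above Ccr2+ Mac, Ccr2+ Mac above Resid. Mac, Resid. Mac above tDL, PT-S2 above TAL and TAL above PT-S3.

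**Figure D1:**
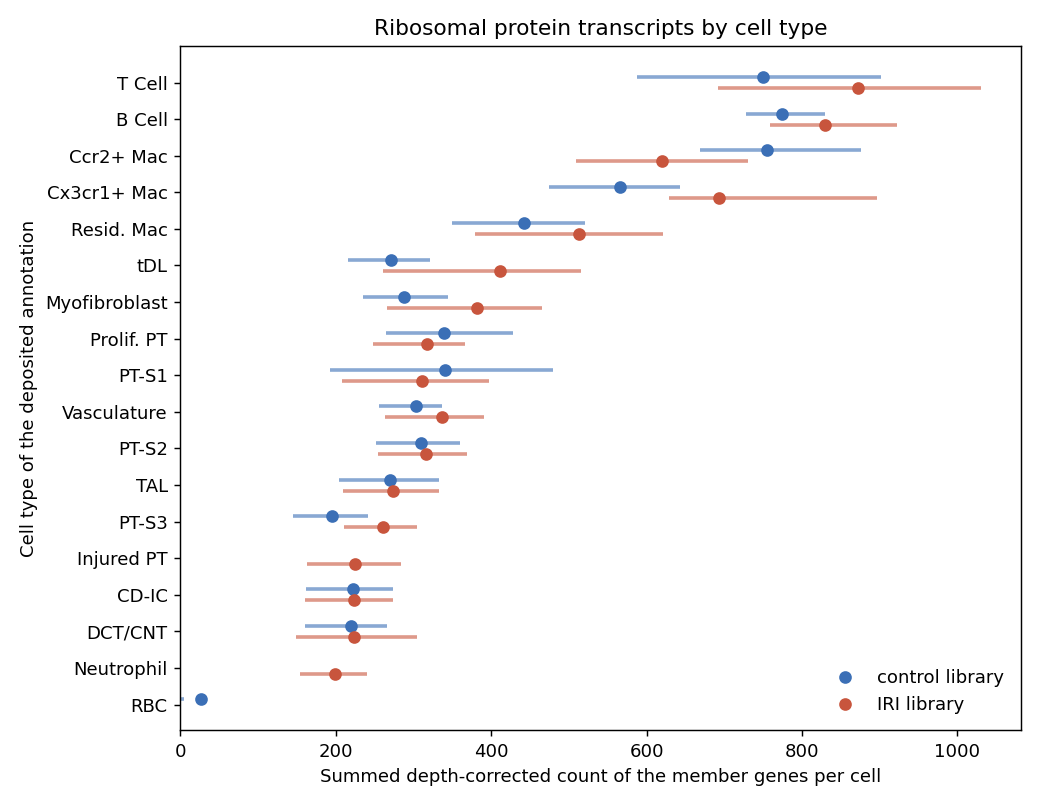
Mean summed depth-corrected count of the 86 members per cell (dots) and the quartiles over cells (lines) for each type with at least 15 cells, control library in blue and IRI library in red. B Cell and T Cell lie between 750.2 and 873, the tubule types between 195 and 411, and control RBC at 26.8, above its quartiles of 1 and 5.

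Mature erythrocytes have lost their ribosomes, and cells named RBC give 1 view of what free RNA and stray molecules leave. It need not hold in shallower cells: control RBC had a median of 6829 raw UMIs and control Resid. Mac 599.5. Resid. Mac also held proximal tubule markers, as given below. The 35 control cells named RBC averaged 26.8 counts of all members, 0.920% of their total, with a median of 3 per cell. The lowest sum among the 13 compared types, 195 in control PT-S3, lay well above that mean. In proximal tubule cells the member sum was smaller where the share of mitochondrially encoded counts was larger, and both are parts of the same total. In PT-S1 to PT-S3 the quartile of cells with the lowest mitochondrial share averaged 375 member counts in control and 403 in IRI, and the quartile with the highest averaged 199.96 and 240.0. The mean mitochondrial share of these cells was 19.0% in control and 24.2% in IRI. Its part in the differences between the libraries was not tested. IRI was the higher library in each of the 4 quartiles of the 3 segments together, while in PT-S1 alone it was lower in the quartile of lowest share, at 482 in control and 436 in IRI. By raw UMIs IRI was higher in the 3 shallower quartiles and lower in the deepest, at 284 in control and 261 in IRI.

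Most members were higher in lymphocytes than in proximal tubule. The median log2 ratio of B Cell over PT-S1 to PT-S3 was 1.47 in control and 1.45 in IRI, and 73 of 85 and 73 of 84 measured members were at least 1.5-fold higher, against 16.3% and 16% of all measured genes. For T Cell the medians were 1.44 and 1.53, and 74 of 85 and 75 of 84 members were at least 1.5-fold higher, against 23.4% and 24.4% of all genes. In Resid. Mac the medians were 0.68 and 0.80, with 52 of 85 and 64 of 84 members past the fold, against 3.07% and 7.07%. Ccr2+ Mac had medians of 1.42 and 1.04, with 76 and 72 of 85 members past the fold, against 20.3% and 20.5% of genes. Cx3cr1+ Mac, with a member sum of 566 in 106 control and 693 in 19 IRI cells, had medians of 1.02 and 1.23, with 70 of 85 and 75 of 84 past the fold, against 25.3% and 21%. Rps9 stood highest in both libraries of both of these macrophage types, at 2.57 and 1.86 in Ccr2+ Mac. The distal types lay on the other side. DCT/CNT had medians of -0.31 and -0.43, with 7 of 85 and 25 of 84 members at least 1.5-fold lower, against 9.61% and 13.7% of genes, and CD-IC -0.38 and -0.44, with 13 and 32 lower, against 17.8% and 16.2%. The same member stood lowest in both libraries of both lymphocyte types, Rps27l, and the highest was Rps27 in B Cell of both libraries and in IRI T Cell.

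Rps27 and Rps27l are near copies of each other, and Rps27l is known as a target gene of p53. Rps27 averaged 30.6 counts per cell in control B Cell and 35.4 in IRI, and 24.1 and 25.9 in T Cell. In PT-S1 to PT-S3 it averaged 4.19 and 4.38. Its log2 ratio to the proximal tubule was 2.85 and 2.999 in B Cell, the highest of all members there. Rps27l went the other way. Its mean was 2.62 and 2.30 in PT-S1 to PT-S3, 0.556 and 0.638 in B Cell, and 0.644 and 0.515 in T Cell. Of the counts of the pair, Rps27l made up 40.5% and 37.5% in PT-S3, 40.4% and 36.8% in PT-S2, 31.8% and 31.6% in DCT/CNT, 18.5% and 19.0% in Resid. Mac, 2.60% and 1.95% in T Cell and 1.79% and 1.77% in B Cell. In the other macrophage types it made up less than in Resid. Mac, 5.86% and 9.55% in Ccr2+ Mac and 5.81% and 11.6% in Cx3cr1+ Mac. Resid. Mac also held proximal tubule markers, and their part in its share was not tested. The order of the types given here was tubule, then macrophage, then lymphocyte in both libraries. Reads of near copies can be split between them by the counting, and how the authors' counting did this is not given in the sources used here.

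**Figure D2:**
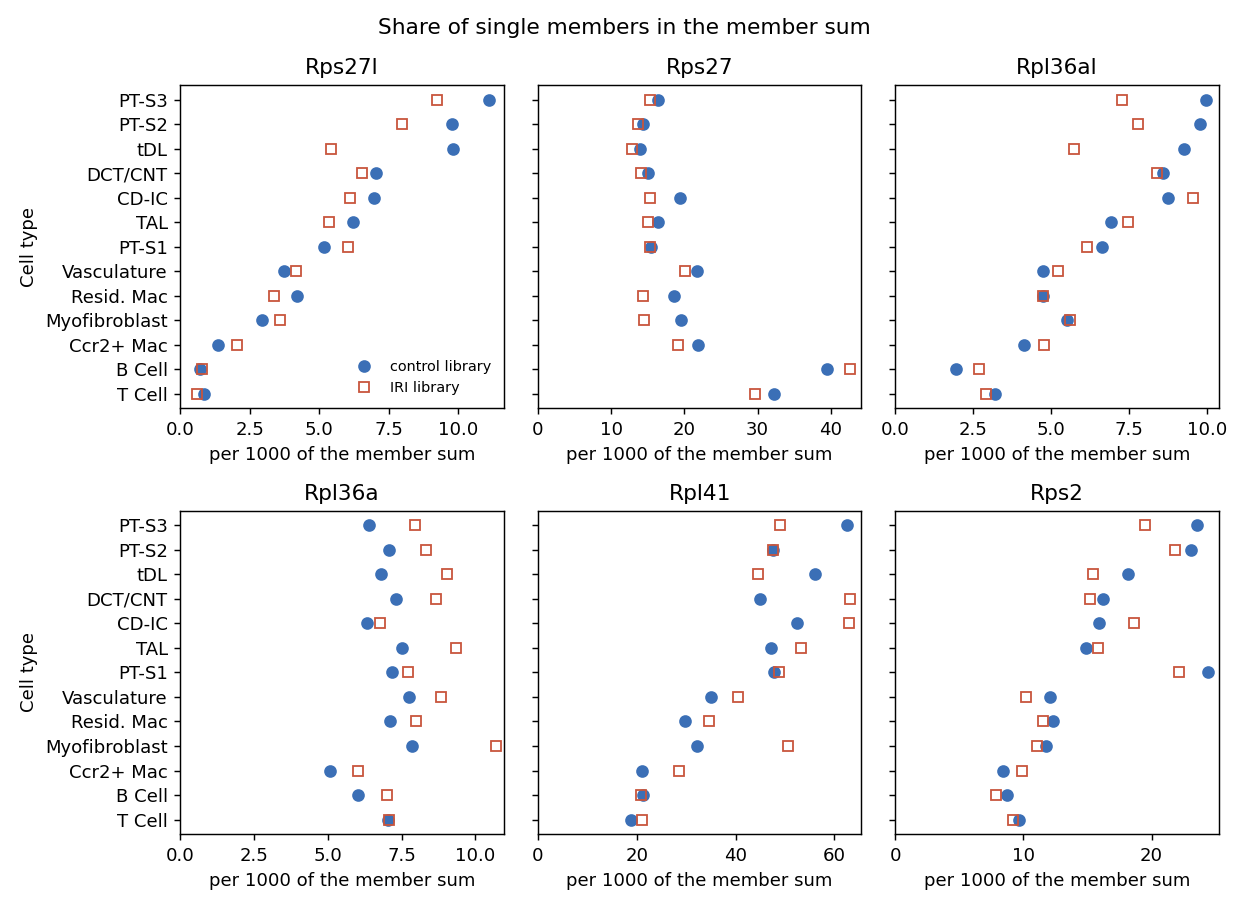
Share of 6 members in the summed members of a cell type, per 1000, with control as filled blue circles and IRI as open red squares; types are ordered by Rps27l. Rps27l runs from 0.591 in IRI T Cell to 11.1 in control PT-S3, and Rps27 is highest in B Cell, at 39.5 and 42.7.

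Rps27l had the most uneven share of the member sum over the 13 types, with an SD of 1.24 on the log2 scale, followed, among members measured in all 13 types, by Rpl36al (0.62), Rpl41 (0.54), Rps2 (0.51) and Rps27 (0.46). Rpl36al, a copy of Rpl36a, took a larger part of that pair in tubule cells than in lymphocytes. It was 57.3% of the pair in control PT-S1 to PT-S3, 31.1% in control T Cell and 24.6% in control B Cell. In IRI these shares were 47.1%, 29.2% and 27.6%. In the proximal tubule both genes differed: Rpl36al stood at 2.61 in control and 2.16 in IRI, and Rpl36a at 1.95 and 2.43. Rpl41, which encodes a very short basic peptide of the large subunit, was 62.6 per 1000 of the member sum in control PT-S3 and 18.8 in control T Cell. Rps2, a protein of the small subunit near the messenger RNA entry, was 24.4 per 1000 in control PT-S1 and 9.65 in control T Cell. Rps2 means per cell were close, 8.31 and 7.24, while the member sum of T Cell was the larger. Rpl22l1 made up 41.0% and 38.8% of the Rpl22 pair in PT-S1 to PT-S3 and 24.7% in the IRI Neutrophil cells. Rpl3l, known from striated muscle, averaged at most 0.0755 in any type shown here with 20 or more cells, in Neutrophil.

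The comparison of injured with control kidney began with the proximal tubule, where ischaemic injury is known to strike. Across the 4827 control and 3261 IRI cells of PT-S1 to PT-S3 the member sum was 279.8 and 301 counts per cell, 13.4% and 14.7% of all counts. The median log2 ratio of the 85 measured members was 0.10, with a range from -0.33 to 0.36, and 62 were above 0. The median of all 10342 measured genes was -0.02, and that of 206 other genes with a mean of at least 1 was -0.18. No member was 1.5-fold higher and none 1.5-fold lower, against 1.64% and 3.76% of all measured genes. The 34 Rps symbols had a median of 0.14 and the 51 Rpl symbols 0.07. The shift was thus small and spread over both subunits, and it differed by segment, as given below.

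The P stalk of the large subunit recruits the elongation factors, and the transcripts of its 3 proteins stood on the higher side in PT-S1 to PT-S3 together. Rplp0 averaged 4.07 in control and 5.08 in IRI proximal tubule cells, a log2 ratio of 0.32. Rplp1 averaged 6.61 and 8.28 (0.32), and Rplp2 3.81 and 4.21 (0.14). In PT-S1 alone the ratios of Rplp0, Rplp1 and Rplp2 were -0.08, 0.04 and -0.02. Rpsa, the small subunit protein also described as a laminin receptor, was level at 2.23 and 2.19 (-0.03). The sign of Rpsa turned to 0.14 when totals left out mitochondrially encoded, ribosomal protein and haemoglobin genes.

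The highest ratios in the proximal tubule came from both subunits. Rps28, a small subunit protein, averaged 2.70 in control and 3.48 in IRI (0.36). Rps9, which takes part in early assembly of the small subunit, averaged 2.21 and 2.83 (0.35). Rpl39, which lines the exit tunnel of the large subunit, averaged 4.97 and 6.34 (0.35). All of these lay in the IRI direction under every one of the 13 alternatives. Rpl15 averaged 1.27 and 1.64 (0.35), and Rpl23, one of the ribosomal proteins known to bind Mdm2, 4.83 and 6.08 (0.33). The lowest ratios belonged largely to copies and to the binding protein. Rpl7l1, a relative of Rpl7 linked to ribosome assembly, averaged 0.123 and 0.0874 (-0.33). Rpl3l averaged 0.0213 and 0.00705 (-0.32), Rpl36al stood at -0.27, and Rps19bp1 averaged 0.148 and 0.117 (-0.25). The ratios of the scarce genes among these are drawn toward 0 by the added 0.05. Rps25, known for its part in initiation at internal entry sites, was the lowest of the usual members, with 3.53 in control and 2.99 in IRI (-0.24), and Rpl35a was close to it, with 5.70 and 4.86 (-0.23). Rps27l stood at -0.18 and reversed to 0.17 when cells were compared within clusters.

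**Figure D3:**
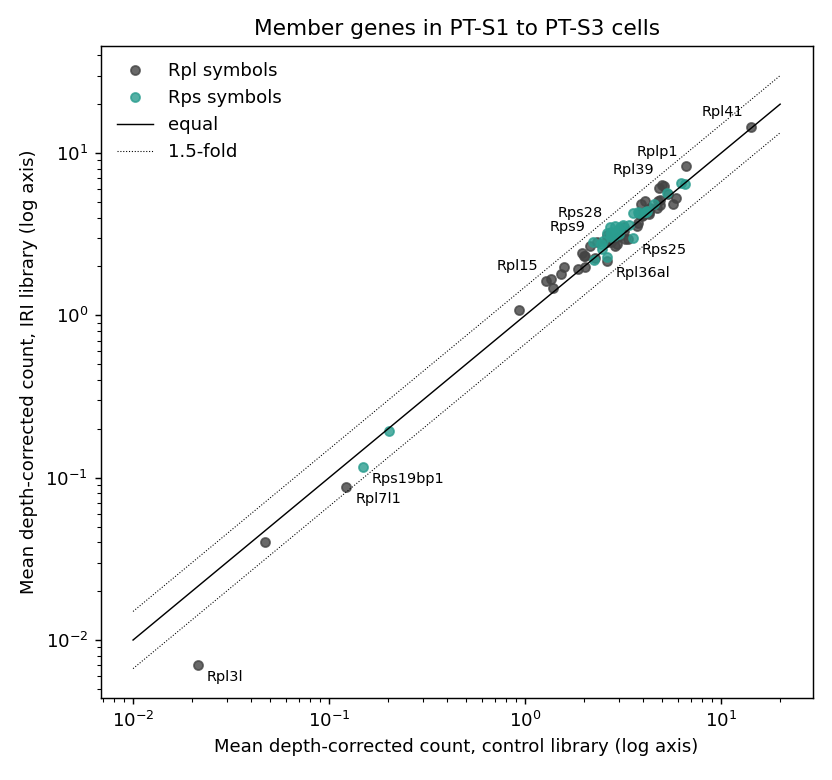
Mean depth-corrected count of the 85 measured members in PT-S1 to PT-S3 cells, control library on the x axis and IRI library on the y axis, both log scales; the solid line marks equality and the dotted lines 1.5-fold. Members keep close to the line; Rpl3l, at 0.0213 and 0.00705, falls outside the dotted lines because the plotted means have no added 0.05.

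Within the proximal tubule the segments went different ways. In PT-S3 (1442 control and 790 IRI cells) the median was 0.46, with 79 of 85 members above 0. Here 24 members were at least 1.5-fold higher, against 4.04% of all measured genes, and 0 were lower, against 9.29%. Rpl15 had the highest ratio, with 0.682 in control and 1.37 in IRI (0.96). Rps9 averaged 1.45 and 2.47 (0.74), Rpl12, at the base of the stalk, 0.799 and 1.37 (0.75), and Rps28 2.04 and 3.15 (0.62). In PT-S2 (2785 and 1482 cells) the median was 0.03 with 48 of 85 above 0, 0 at least 1.5-fold higher against 1.3% of all genes, and 1 lower (Rpl7l1, 0.138 and 0.0749, -0.59) against 7.12%. In PT-S1 (600 and 989 cells) it was -0.13 with 70 of 84 below 0, where Rpl14 was lowest, with 4.49 and 3.06 (-0.55). No PT-S1 member was 1.5-fold higher or lower, against 2.87% and 4.79% of all genes. The all-gene medians were -0.08, -0.08 and -0.10 in PT-S3, PT-S2 and PT-S1, so PT-S1 members lay close to the all-gene median. Other genes with a mean of at least 1 had medians of 0.04, -0.23 and -0.20 in the same order, below the members in each segment. Leaving mitochondrially encoded, ribosomal protein and haemoglobin genes out of the totals turned the PT-S1 median to 0.03. By raw UMIs the PT-S1 member sum was higher in IRI in the shallower quartiles, at 326 and 360, then 323 and 355. It was lower in IRI in the deeper quartiles, at 352 and 269, then 361 and 256. The part of depth was not tested.

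The deposited clusters show where the segment differences lay. PT-S3 cells of the 2 libraries fell into different clusters: cluster 3 held 127 control and 727 IRI cells, cluster 4 held 742 and 58, and clusters 8 and 21 held 455 and 118 control cells but 4 and 1 IRI cells. Within cluster 3 the member sum was 259 in control and 263 in IRI, with a median log2 ratio of 0.05. Within cluster 4 it was 215 and 245, with a median of 0.19. The control cells of clusters 8 and 21 averaged 162 and 134. With equal weight to the clusters that hold both libraries the PT-S3 median was 0.10 in place of 0.46. Clusters 8 and 21 were also the deepest of the control PT-S1 to PT-S3 clusters, with medians of 8192 and 10278 raw UMIs. Cells of PT-S1 split in the opposite manner: cluster 5 went from 201 in control to 219 in IRI (median 0.11), and cluster 6 from 469 to 406 (-0.18). Within PT-S2, clusters 0 (285 and 303) and 12 (363 and 384) were higher in IRI, and clusters 1 (359 and 322) and 2 (252 and 239.9) were lower. Over clusters holding both libraries the median for PT-S1 to PT-S3 was 0.01.

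**Figure D4:**
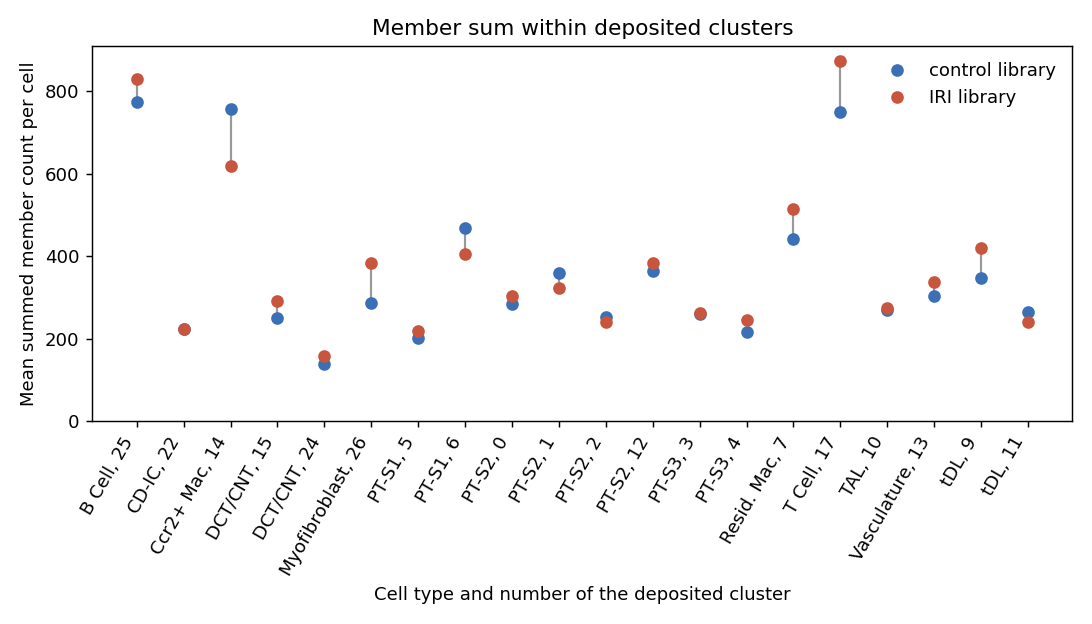
Mean summed member count per cell in each deposited cluster with at least 20 cells of each library, control in blue and IRI in red, joined by a line. The 2 clusters of PT-S3 (3 and 4) lie between 215 and 263, and PT-S1 cluster 6 stands at 469 and 406, above the other proximal tubule clusters.

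The cells named tDL had the largest median of the 13 types, 0.59, over 427 control and 440 IRI cells. Of 84 measured members 77 were above 0, and 42 were at least 1.5-fold higher, against 20.8% of all measured genes; 0 were 1.5-fold lower, against 21.8%. The all-gene median was 0.01. The small subunit median was 0.71 and the large subunit median 0.47. Rpl12 averaged 1.31 in control and 3.60 in IRI (1.42). Rps28 averaged 2.44 and 5.55 (1.17), Rps9 2.19 and 4.8 (1.11), and Rpl38 3.64 and 7.58 (1.05). Not every member shared that direction: Rps25 (3.48 and 3.41, -0.03), Rpl36al (2.51 and 2.36, -0.09) and Rps27l (2.66 and 2.23, -0.25) stood at or below 0. The 2 libraries again sat in different clusters: cluster 9 held 36 control and 420 IRI cells, and cluster 11 held 391 and 20. Within cluster 9 the sum was 346 and 419 (median 0.29), and within cluster 11 it was 264 and 239.6 (-0.16), so the median with equal weight per cluster was 0.06. Markers of injured proximal tubule summed to 0 in control and 3.12 in IRI tDL cells, beside the lower proximal tubule markers given above. Thick ascending limb markers summed to 0.173 and 3.06, and neutrophil markers to 0 and 1.56, so the cells compared under this name were not alike in the 2 libraries, and what part this has in the ratios was not tested. In cluster 9 Rplp0 took 10.8 per 1000 of the member sum in control and 16.5 in IRI, and Rps25 took 12.7 and 8.22.

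Macrophages and lymphocytes did not share 1 direction. In Resid. Mac (188 control and 306 IRI cells) the median was 0.18 with 75 of 82 members above 0. The median of all measured genes was 0.19, and scaling by the median gene left the members at -0.00138. The 166 other genes with a mean of at least 1 had a lower median, -0.14. Members 1.5-fold higher were 2, Rps20 (4.08 in control and 6.31 in IRI, 0.62) and Rps27rt, a retrocopy of Rps27 (0.170 and 0.350, 0.86), against 24.4% of all genes, and 0 were lower, against 11.5%. Rplp0 averaged 5.12 and 7.62 (0.57). The lowest were Rps27 (8.21 and 7.36, -0.16), Rps27l (1.86 and 1.73, -0.10) and Rpl9 (4.74 and 4.54, -0.06). Proximal tubule markers summed to 19.4 in control and 5.96 in IRI cells of this type, of which a single gene made up 16.5 and 4.01. Macrophage markers summed to 8.09 and 15.1, and the part of both lists in the ratio was not tested. Median raw UMIs were 599.5 and 799.5, the lowest of the immune types. In the shallowest quartile of raw UMIs the member sum was 428 in control and 391 in IRI, and in the next 422 in both. In the deeper quartiles it was 477 and 537, then 465 (17 control cells) and 621. By mitochondrial share IRI was higher in all but the highest quartile, where the sums were 376 and 356. The part of depth in the ratio was not tested.

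T Cell had the most even difference, with a median of 0.21 and 80 of 81 members above 0 in 59 control and 97 IRI cells. The exception was Rps27l, at -0.30. Rpl15 alone was 1.5-fold higher, with 2.59 in control and 4.08 in IRI (0.64), against 6.52% of all measured genes, and 0 were lower, against 9.46%. B Cell (27 and 69 cells) had a median of 0.11, with 63 of 81 above 0. No B Cell member was 1.5-fold higher or lower, against 7.89% and 8.07% of genes, and Rpl36al stood highest, at 1.52 and 2.22 (0.53). Both lymphocyte medians were above 0 under every alternative run.

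Ccr2+ Mac had lower members in IRI. The median was -0.26 with 72 of 81 members below 0, beside an all-gene median of 0.19 (32 control and 217 IRI cells). Members 1.5-fold lower were 6, against 12.5% of all genes, and 0 were higher, against 30.3%. Among them were Rpl3, Rpl9, Rpl17 and Rps3. Rpl3, which sits near the peptidyl transferase centre, averaged 7.31 in control and 3.76 in IRI (-0.95). Rpl9 averaged 9.72 and 6.21 (-0.64). Rps27l and Rpl41 were exceptions, at 0.27 and 0.15. Macrophage markers summed to 17.3 in control and 41.8 in IRI cells, so the control cells under this name held fewer macrophage transcripts, and what part this has in the ratios was not tested. The median stayed below 0 in all 12 alternatives, from -0.46 to -0.25.

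**Figure D5:**
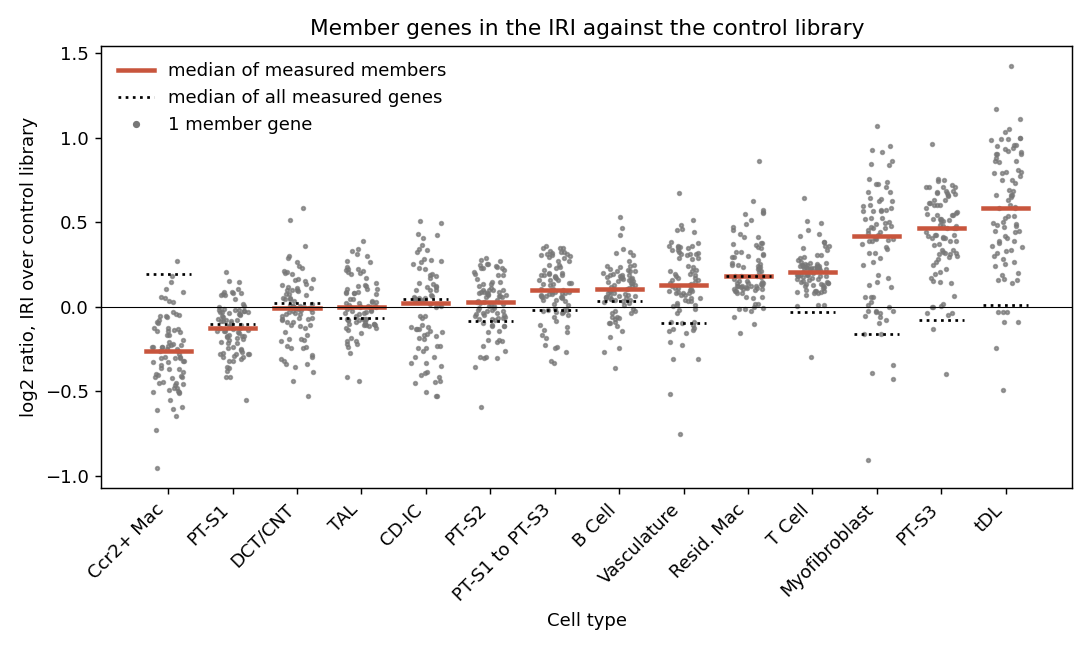
Log2 ratio of IRI over control for each measured member (grey dots), their median (red bar) and the median of all measured genes (dotted line) in PT-S1 to PT-S3 together and in 13 types. Medians run from -0.26 in Ccr2+ Mac to 0.59 in tDL, and in Resid. Mac the member median of 0.18 meets the all-gene median of 0.19.

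The remaining types ranged from no difference to a high one. Myofibroblast (31 and 35 cells) had a median of 0.42, with 21 of 80 members 1.5-fold higher against 12.9% of all genes, and 1 lower against 28.4%. Rpl41 averaged 9.23 in control and 19.4 in IRI there (1.07), and Rpl39 5.26 and 10.03 (0.93). Rpl3 was the member that stood lower, at 3.26 and 1.71 (-0.91). Vasculature had a median of 0.13, with 1 member higher (Rpl39, 4.37 and 7, 0.67) against 6.09% of genes and 1 lower (Rps27rt, 0.419 and 0.229, -0.75) against 18.4%. As whole types TAL, CD-IC and DCT/CNT were level, with medians of 0.00, 0.02 and -0.01. Other genes of mean 1 or more had medians of 0.12, 0.17 and 0.15 there. The sign of each member median differed among the alternatives. Only Rps27rt in DCT/CNT was past 1.5-fold (0.131 and 0.222, 0.59), against 12.2% of genes higher and 12.4% lower there, 12.8% and 12.8% in CD-IC, and 6.02% and 14.3% in TAL. Both DCT/CNT clusters were higher in IRI: cluster 15 had sums of 251 and 292 (median 0.20), and cluster 24 had 138 and 157 (0.17). Cluster 24, with the lower sums, held 64 of 236 control cells and 32 of 63 IRI cells. Across the 13 types, 10 medians were above 0, and 8 were above the median of all genes of the type.

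Some members leaned the same way in type after type, although all types come from the same 2 libraries and are not independent. Rps28 and Rpl36a lay above the member median in 13 of 13 types, and Rpl9 was among those below it in 13 of 13. Rps28 stood at 0.84 in Myofibroblast, 0.51 in CD-IC, 0.32 in Resid. Mac, 0.24 in B Cell and -0.14 in Ccr2+ Mac. Rpl36a stood at 0.84, 0.10, 0.38, 0.32 and -0.04 in the same order. Rpl9, near the base of the stalk, stood at -0.43, -0.42, -0.06, -0.27 and -0.64. Rpl39, Rpl15, Rps20, Rpl23a and Rpl12 lay above the member median in 12 types, and Rpl14, Rps25, Rpl4, Rps27 and Rpl8 below it in 12.

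Types found mainly in the IRI library were set beside the IRI cells of PT-S1 to PT-S3. Injured PT (135 cells) averaged a member sum of 225 counts, with a median log2 ratio of -0.40, and 27 of 84 members were 1.5-fold lower, against 8.36% of all measured genes. The lowest was Rps26, with a mean of 1.30 against 3.18 (-1.26), and the highest Rpl38, with 5.24 against 4.84 (0.12). These cells were also the richest of the tubule types in mitochondrially encoded counts, at 31.9%. Their median depth was 8267 raw UMIs, against 1819 in the IRI cells of PT-S1 to PT-S3. Those IRI PT-S1 to PT-S3 cells in the deepest quartile, with a median of 7867, averaged a member sum of 261. The part of depth in the Injured PT ratio was not tested. Prolif. PT (155 cells) averaged 318, with a median of 0.08, and 0 members were 1.5-fold higher or lower, against 5.08% and 6.62%; Rps20 was highest (4.35 against 3.24, 0.42). Neutrophil (106 cells) averaged 199, with a median of -0.69 and 53 of 85 members 1.5-fold lower, against 27.7% of genes. Rpl3 was the lowest there, at 0.406 against 1.92 (-2.11), while Rps27 (7.71 against 4.38, 0.81) and Rps9 (5.22 against 2.83, 0.87) were higher than in the tubule cells.

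Genes that share the TOP tract or work with the ribosome gave a like picture in PT-S3 and tDL. Of 14 partners in the table, 5 were 1.5-fold higher in PT-S3 with a median of 0.51, against 4.04% of all measured genes, and 9 were higher in tDL with a median of 0.76, against 20.8%. Npm1, a nucleolar assembly factor, averaged 0.273 in control and 0.676 in IRI PT-S3 (1.17). Eef1a1, the elongation factor that brings transfer RNA, averaged 5.22 and 6.58 (0.33). In PT-S1 to PT-S3 together the partners had a median of 0.07 and 1 of 14 was 1.5-fold higher, against 1.64%, again Npm1 (0.463 and 0.771, 0.68). In Ccr2+ Mac the partners had a median of -0.42, and 5 of 14 were 1.5-fold lower, against 12.5%.

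Other parts of the translation apparatus had medians near or below 0 in the proximal tubule, where 3.76% of all measured genes were at least 1.5-fold lower. The 28 initiation factors had a median of 0.03 in PT-S1 to PT-S3 with 0 past 1.5-fold. The 32 biogenesis genes had a median of 0.01, and 2 were 1.5-fold lower: Npm3, a histone chaperone of the nucleolus (0.496 and 0.0948, -1.92), and Nhp2, a protein of small nucleolar ribonucleoproteins (0.550 and 0.251, -0.996). Among 15 genes that control TOP translation the median was -0.05 and 3 were lower: Ddit4, an inhibitor of mTOR signalling (0.212 and 0.0212, -1.88), Mtor itself (0.130 and 0.0583, -0.73) and its activator Rheb (0.296 and 0.179, -0.59). The 77 mitochondrial ribosomal protein genes had a median of -0.26, with 6 above 0 and 6 at least 1.5-fold lower. In tDL they stood at -0.32, with 22 of 68 at least 1.5-fold lower against 21.8% of all genes, beside 0.59 for the cytoplasmic members.

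A table of residuals in the deposit, which scales each gene by its expected spread, held 32 of the members. In PT-S1 to PT-S3 the residual of all 32 was higher in IRI, with a median difference of 0.27, and in PT-S3 all 32 were higher too (0.44). In PT-S1 19 were higher and 13 lower (0.03), where the depth-corrected counts gave -0.13. Ccr2+ Mac was lower in 27 of 32 (-0.87) and tDL higher in 31 of 32 (0.76). Over the 13 types the medians of the 2 scales differed in sign in PT-S1 and in CD-IC (-0.02 in residuals, 0.02 in counts). The residual medians rest on 32 members and the count medians on all measured members, so the sets are unlike.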

How the data were processed

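Single-cell RNA was measured in 1 control and 1 IRI kidney library. Per the submitters' processing notes, Cell Ranger 3.0.0, Seurat 3.2 and mm9 were used; how reads of near copies were counted is not given in the sources used here. The deposited expression table holds a score, depth-corrected whole-number counts that are not raw counts, so no count test or counting interval was used and cells were not thinned. A second deposited table holds residuals, also a score. A deposited log table of the same values was not used. The deposited annotation gives library, cluster and type of each cell. Its numbers were written without separators, and in 3615 of 11759 cells raw UMIs and gene number could be read in several ways, of which the one nearest to the curve of genes on UMIs in the other cells was kept. Doublets were not called.

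Means per cell, type and library were computed with Python 3.11.15, numpy 2.4.6 and pandas 2.3.3, and figures with matplotlib 3.10.9. The log2 ratio adds 0.05 to each mean. Genes with at least 30 summed counts count as measured, and libraries were compared in types that had 20 or more cells in both. A fold of 1.5 marks a gene as higher or lower. With 1 library per group there is no test. The plan had allowed for raw counts; the corrected values were used as they are. The ratio was tested on simulated data that held counting noise of the summed counts alone. Changes were planted in some of the genes above a floor in mean. Spread between cells, clusters, animals or libraries was not simulated, so the results cannot show how reliable 1 library per group is. In PT-S1 to PT-S3, with 10342 genes measured, 100% of changed genes had the right direction. Their median was 0.85 for a true log2 ratio of 1 and -0.75 for -1, and a shift of 0.2 in the members was found as 0.19. In Resid. Mac, with 1771 genes measured, 99% of changed genes had the right direction, and the medians were 0.95 and -0.79. The shift was found as 0.19, and 3.16% of unchanged genes passed the fold of 1.5.

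Promoters are RefSeq's, GRCm38.p6, the first start listed per symbol; expression was counted on mm9, so these windows give sequence only. Named genes are the 5 highest and 5 lowest ratios in PT-S1 to PT-S3, 3 and 3 in Resid. Mac, the stalk genes and Rpsa, the paralog pairs and the 5 members with the most uneven share; other members named as the highest, lowest or past the fold of a type, or for lying on 1 side in 12 or more types, and those given as further examples, were chosen after their values were seen. The members and lists were chosen with earlier results of these data known. A few genes are counted in the totals but not reported by name here. Alternatives were other scalings, limits, added constants, folds and subsets of cells.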

Additional observations from a re-analysis of the deposited data

Results flagged for a closer look

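Median log2 ratios of the members went opposite ways in different cell types. Ccr2+ Mac stood at -0.26 and PT-S1 at -0.13, while B Cell (0.11), Vasculature (0.13), Resid. Mac (0.18), T Cell (0.21), Myofibroblast (0.42), PT-S3 (0.46) and tDL (0.59) stood above 0. With 1 library per group the difference between types was not tested. The PT-S1 value turned to 0.03 when totals left out mitochondrially encoded, ribosomal protein and haemoglobin genes, and the Ccr2+ Mac value did not change sign in any alternative. By raw UMIs the PT-S1 member sum was lower in IRI only in the deeper quartiles, as given above.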

How the results depend on the processing

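In PT-S1 to PT-S3 the member median of 0.10 was -0.13 in PT-S1 alone, 0.46 in PT-S3 alone and 0.26 with totals that left out mitochondrially encoded, ribosomal protein and haemoglobin genes; the cause was not tested. It was 0.01 within deposited clusters, an alternative chosen after seeing the data. In Resid. Mac the median of 0.18 became -0.00138 with the median of gene ratios and -0.00802 with a trimmed mean of log ratios, which by construction centre all genes near 0. In PT-S1 to PT-S3 a limit 25% above equality in place of 1.5-fold counted 7 members higher and 2 lower in place of 0 and 0, and with 0.01 added in place of 0.05, 1 member was lower. The number of types with a median above 0 ran from 8 to 10 of 13 where all types were kept, and was 9 of 12 or 8 of 10 where limits on cells left fewer. Of 162 medians of single types under alternatives 21 moved by over 0.1, and of 364 values of named members 60 did. The PT-S3 median ran from 0.10 to 0.61 and that of tDL from 0.06 to 0.71, both lowest within clusters. Some alternatives that limit the cells left under 20 per library in B Cell, Myofibroblast, Resid. Mac and Ccr2+ Mac and gave no value there. No paired analysis was possible because each group has 1 library; for the same reason no library could be left out. Depth differed between clusters, and genes under 30 summed counts were not read.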
